A study of Rattus norvegicus with 27 samples.

Results

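The 38 genes described here code for the machinery of synaptic vesicle release and recycling. They are the rows of the deposited count table whose rat symbol is in a fixed list of synaptic vesicle and SNARE genes, 38 of 36865 rows by symbol, with Pclo on 2 rows. They were measured by RNA sequencing of the medial prefrontal cortex (mPFC) of 27 adult male Wistar rats, an outbred strain, with 1 library per rat and no control group. The rats came from 2 cohorts that held more rats, and were chosen by anxiety rank after repeated plus-maze, light-dark and open field testing. The choice ran across the whole range of ranks, and the rats were at rest when killed. The sample labels also name acoustic startle, fear conditioning and, as treatment, learned helplessness. The study asked which transcripts follow trait anxiety, but the anxiety scores of single rats were not used here, so what follows describes how much of each transcript was found, how far the rats differed and which genes moved together.

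At a presynaptic terminal, vesicles filled with transmitter dock at the active zone, where the SNARE proteins of the vesicle (synaptobrevin, coded by Vamp1 and Vamp2) and of the plasma membrane (Snap25 and syntaxin, Stx1a) zip together and fuse the membranes. Synaptotagmins sense the calcium that triggers fusion, complexins hold and release the zipped complex, and Nsf with its adaptors takes it apart again. Synapsins tether the reserve vesicles, and clathrin adaptors, amphiphysin, endophilin, synaptojanin and dynamin bring the membrane back. In cortex these proteins are made by excitatory and inhibitory neurons, and several paralogs divide their work by neuron type.

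Each library held between 4907255 and 12771309 reads assigned to genes (median 8168801). The 16 libraries numbered up to 31 held at most 8568317 reads and the 11 numbered from 32 at least 9404220, so the library number parts the depths. The main pairs below are also given within these 2 sets, and the slopes on marker scores with the set as a further term. What the number stands for is not given by the labels. Whether it follows the 2 cohorts of the study is not known here. All 10 neuron markers of the marker list had counts, as had 5 of 6 upper-layer and 6 of 8 deep-layer cortical markers, with Cux1, Tshz2 and Hs3st4 at 0 or absent. The 38 genes took 1.36% to 1.85% of all counted reads, with a mean of 1.65% ± 0.118 (SD, n = 16) in libraries up to 31 and 1.76% ± 0.0546 (SD, n = 11) in those from 32. Library 3, with 5654175 reads, had the lowest share, and it stood apart for many of these genes, so the main results that rest on it are given with and without it.

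Reads were counted for 34 of the 38 genes. Nsf, which codes for the ATPase that separates used SNARE complexes, Syp (synaptophysin, a vesicle membrane protein), Rims1 (a scaffold that binds Rab3 and primes vesicles) and both rows of Pclo (piccolo, a giant active zone scaffold) were listed at 0 in all 27 libraries. From counting error only, 0 reads allow a share of up to 6.11e-05% in the shallowest library and 2.35e-05% in the deepest. No read was assigned to these rows, which for Pclo are 2 parts of a split locus. Whether reads of these genes could be assigned to the rows is not known here, so the limits do not bound the transcripts themselves, and the 4 genes are treated as not measured. All 34 others had a mean of at least 10 reads. Their levels are given as normalized read counts, that is, reads divided by the size factor of the library. As the reads on a gene also grow with the length of its transcript, levels are compared between rats within a gene and not between genes.

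Promoter sequence helps to place the genes that moved most closely together, which were Syn1 with Dnm1, and Syt1 with Synj1 and Napb. RefSeq windows of the GRCr8 assembly, 250 bases before to 50 after the start, were found for 28 of the 38 genes. Those of the 5 genes are shown 5′ to 3′ on the strand of the gene, from chrX:3725495-3725794 (plus strand) for Syn1, chr3:36046240-36046539 (minus) for Dnm1, chr7:46244164-46244463 (minus) for Syt1, chr11:43755477-43755776 (minus) for Synj1 and chr3:156632369-156632668 (minus) for Napb. Capitals mark the cyclic AMP response element (CRE, TGACGTCA) and the GC box (GGGCGG, or CCGCCC where it lies on the other strand).
Syn1: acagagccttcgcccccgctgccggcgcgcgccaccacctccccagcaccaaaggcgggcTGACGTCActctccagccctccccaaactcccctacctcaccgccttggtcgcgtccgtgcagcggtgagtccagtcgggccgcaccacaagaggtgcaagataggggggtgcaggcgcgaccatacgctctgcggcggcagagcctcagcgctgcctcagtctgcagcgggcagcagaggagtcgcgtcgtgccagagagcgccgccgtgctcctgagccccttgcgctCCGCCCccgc
Dnm1: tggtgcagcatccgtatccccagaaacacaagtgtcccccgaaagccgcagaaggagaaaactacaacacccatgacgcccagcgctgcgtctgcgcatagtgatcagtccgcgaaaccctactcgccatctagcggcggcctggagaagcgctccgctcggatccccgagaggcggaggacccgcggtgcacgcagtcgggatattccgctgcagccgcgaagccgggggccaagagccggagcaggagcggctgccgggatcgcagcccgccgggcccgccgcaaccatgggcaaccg
Syt1: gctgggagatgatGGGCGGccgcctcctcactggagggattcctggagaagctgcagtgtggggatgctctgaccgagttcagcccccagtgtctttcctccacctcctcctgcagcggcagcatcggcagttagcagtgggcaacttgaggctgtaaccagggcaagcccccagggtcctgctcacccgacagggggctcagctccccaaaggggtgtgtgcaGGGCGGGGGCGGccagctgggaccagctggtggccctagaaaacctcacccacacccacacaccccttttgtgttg
Synj1: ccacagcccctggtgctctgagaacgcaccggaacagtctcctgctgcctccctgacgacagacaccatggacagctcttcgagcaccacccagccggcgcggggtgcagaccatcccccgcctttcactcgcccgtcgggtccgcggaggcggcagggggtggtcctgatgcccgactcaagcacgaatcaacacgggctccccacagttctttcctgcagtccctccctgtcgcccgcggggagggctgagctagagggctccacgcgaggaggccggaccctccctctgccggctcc
Napb: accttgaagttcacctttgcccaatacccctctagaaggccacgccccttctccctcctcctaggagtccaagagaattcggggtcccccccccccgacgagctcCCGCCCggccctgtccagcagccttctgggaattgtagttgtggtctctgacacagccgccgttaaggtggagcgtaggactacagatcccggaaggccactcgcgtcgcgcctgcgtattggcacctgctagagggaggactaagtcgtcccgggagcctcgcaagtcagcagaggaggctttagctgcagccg
A GC box, searched on both strands, lay in 20 of the 28 windows (71.4%) against 34.9% of the 27457 windows in the table. Within the closest pairs the windows differed in this respect, since the window of Syt1 held 3 GC boxes, 2 of them side by side, that of Napb held 1 and that of Synj1 none, while Syn1 held 1 and Dnm1 none. A CRE, which reads the same on both strands, lay in 4 of the 28 windows (14.3%) against 1.91% of all windows. The 4 genes were Syn1, Napa, Vamp1 and Sh3gl2, and the element with its neighboring bases is shown for them, from chrX:3725544-3725573, chr1:85915365-85915394, chr4:159698812-159698841 and chr5:104699193-104699222, all on the plus strand, with the CRE in capitals.
Syn1 CRE: caaaggcgggcTGACGTCActctccagccc
Napa CRE: gcagacccgggTGACGTCAacgtagcgggc
Vamp1 CRE: cctggagatttTGACGTCAtccacgaggcg
Sh3gl2 CRE: atcacccgcccTGACGTCAgggtgtctctc
TTCAGCACC, the first part of the site of the repressor REST, lay only in the window of Unc13a among the 28 (0.379% of all windows), and the second part of that site only in that of Pclo (0.149% of all windows). These matches are letters in a window and say nothing about binding in this tissue.

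Every one of the 34 genes differed between libraries, 1 per rat, by more than read counting allows. In a chi-square dispersion test against Poisson counts, with Benjamini-Hochberg adjustment over all 11730 genes with a mean of at least 10 reads, 34 of 34 passed, against 89.8% of all genes tested, so passing is close to the background. The SD of the log2 values over the 27 libraries had a median of 0.22 over the 34 genes against 0.19 over all genes tested. At a mean normalized count of 500 or more it was 0.18 for the 29 such members against 0.14 for all 4035. The spread ranged from 0.07 for Vamp2 to 0.80 for Sv2c. Of the 34 genes, 16 had an SD under 0.2, against 53.2% of all genes tested, and 13 at least 0.3, against 25.6%. These numbers leaned on library 3. Without it the median was 0.18 over the members and 0.18 over all genes tested. Then 6 of the 34 genes (Napb, Syt2, Cplx2, Syn3, Sv2c and Amph) had an SD of at least 0.3, against 22.6% of all genes. When library 19 was left out too, the medians were 0.17 and 0.17. At or above 0.3 there remained 4 of the 34 genes, against 21.9% of all genes. In bulk tissue, fewer cells of a type and less RNA per cell cannot be told apart in any of these differences.

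**Figure D1:**
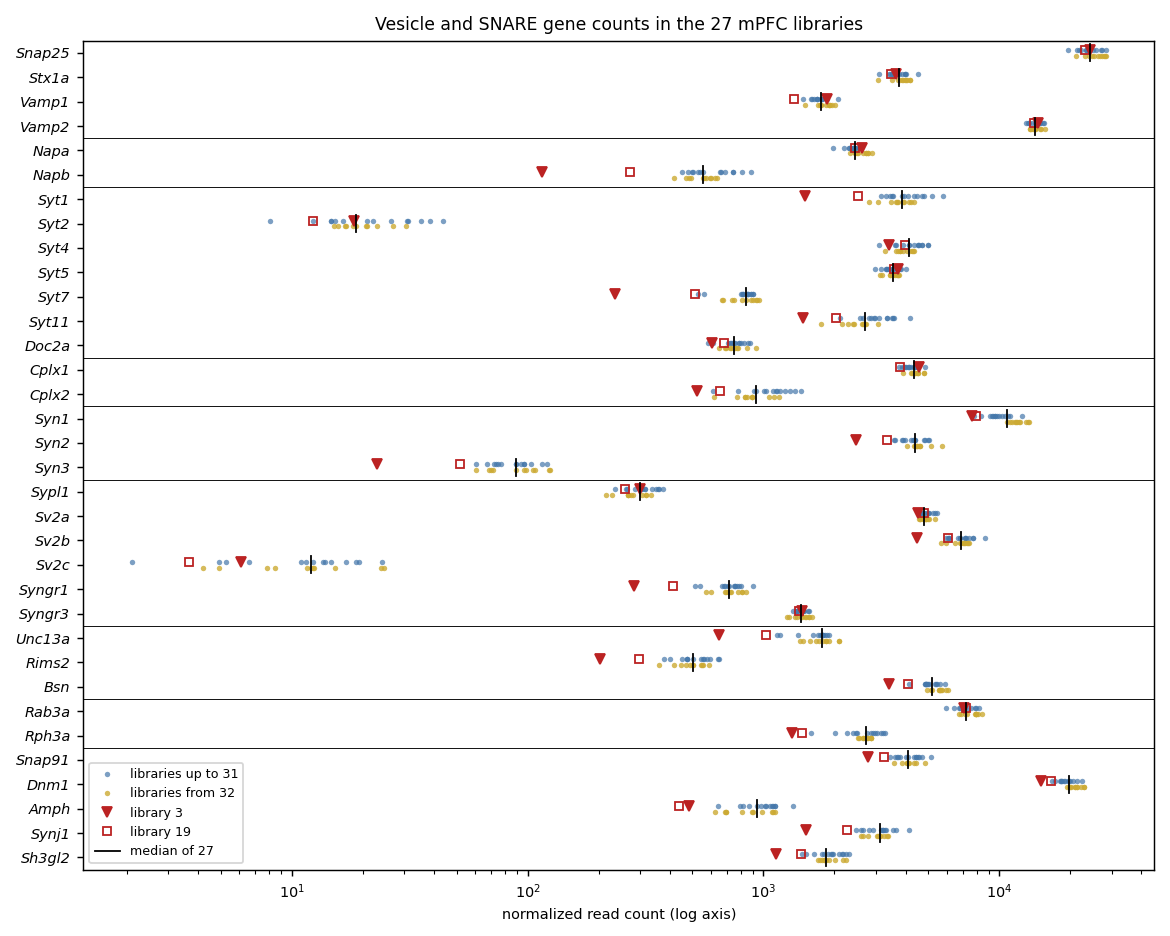
Normalized read counts (log axis) of the 34 vesicle and SNARE genes in the 27 libraries, grouped by role, with each point a library and the black bar the median of 27. Library 3 (triangle) lies far below the other libraries for Napb, Syt1, Syt7, Syn3, Syngr1, Unc13a and Rims2 and within the other values for Snap25, Vamp2, Cplx1 and Rab3a.

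The 4 SNARE genes were among the steadiest. Snap25, which codes for the plasma membrane SNARE that supplies a pair of helices to the complex, had between 19462 and 28230.1 normalized counts with a median of 24195. Its SD was 0.14 on the log2 scale, and the highest library was 1.45 times the lowest. Stx1a, the syntaxin of the same membrane, ranged from 3066 to 4514 around a median of 3751, a 1.47-fold range. Vamp2, the synaptobrevin of most forebrain synapses, was the steadiest of the 34 genes, with 12997 to 15631 counts, a median of 14208 and a 1.20-fold range. Vamp1, the synaptobrevin known from fast-spiking interneurons and motor pathways, ranged from 1348 to 2064 around 1756. Library 3 lay within 0.1 log2 units of the median for each of the 4, at -0.01 for Snap25, -0.04 for Stx1a, 0.09 for Vamp1 and 0.04 for Vamp2.

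The adaptors that recruit Nsf to the used complex split. Napa (alpha-SNAP, present in most cells) ranged from 1975 to 2877 normalized counts around a median of 2445, with an SD of 0.12. Napb (beta-SNAP, a brain form) ranged from 115 in library 3 to 888 in library 12 with a median of 555, a 7.75-fold range and an SD of 0.55. Library 19 was the second lowest, at 272, and the other 25 libraries held at least 419. Without libraries 3 and 19 the SD of Napb was 0.27, still above that of Napa at 0.12 in the same libraries.

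Among the calcium sensors, Syt1, the fast sensor of most cortical synapses, ranged from 1503 to 5777 normalized counts around a median of 3884. The lowest was library 3, followed by library 19 at 2528, and the other 25 held at least 2807. The SD fell from 0.37 to 0.24 without these 2 libraries. Syt7, a slow sensor of high calcium affinity linked to asynchronous release and facilitation, had 235 counts in library 3 and 513 in library 19 against a median of 847 and a maximum of 954. Most rats thus lay close to the top of its range. Syt11, a synaptotagmin that does not bind calcium, ranged from 1467 in library 3 to 4174 in library 12 around 2695. In contrast, Syt5 kept to between 2959.9 and 4019.5 around 3533 with an SD of 0.10, and library 3, at 3722, was above the median. Syt4, an activity-regulated synaptotagmin, ranged from 3103 to 5005 around 4139, and Doc2a, a high-affinity sensor of spontaneous and asynchronous release, from 584 to 933 around 748. Syt2, the fast sensor of hindbrain synapses and of fast-spiking interneurons, had 8 to 42 reads per library. Its normalized counts ranged from 8.09 to 43.6 around 18.8, and counting noise made up 30.5% of its variance, so most libraries cannot be ordered by it.

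The complexins split as well. Cplx1 ranged from 3748 to 4852 normalized counts around 4337, a 1.29-fold range with an SD of 0.10. Cplx2, the form that prevails in excitatory forebrain neurons, ranged from 521 to 1439 around 933, a 2.76-fold range with an SD of 0.37. Without libraries 3 and 19 its SD was 0.32, so its spread did not rest on them.

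Synapsins coat the vesicles and hold them in reserve. Syn1 ranged from 7629 to 13319.9 normalized counts around 10799.5, and Syn2 from 2467 to 5713 around 4370.2, each with an SD of 0.23. Syn3, with 15 to 161 reads per library, ranged from 22.9 in library 3 and 51.6 in library 19 to 125, around 89.0. Library 3 was the lowest of 27 for all 3 synapsins.

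Of the vesicle membrane proteins, the glycoproteins Sv2a and Sv2b differed in spread. Sv2a, the target of the drug levetiracetam, ranged from 4522 to 5439 normalized counts around 4810.1 with an SD of 0.08, and Sv2b from 4467 to 8705 around 6859 with an SD of 0.18. Sv2c, known mainly from basal ganglia and brainstem, had 2 to 34 reads per library and counting noise of 29.3% of its variance. Syngr3 ranged from 1263 to 1609 around 1439.7, while its paralog Syngr1 ranged from 283 in library 3 and 413 in library 19 to 902, around 713. Sypl1, a synaptophysin-like protein that is also found outside neurons, ranged from 216 to 375 around 299.7, and library 3 was its median library.

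At the active zone, Unc13a (Munc13-1, which opens syntaxin and primes vesicles) ranged from 645 in library 3 and 1022 in library 19 to 2098, around 1772. Rims2, a Rab3-binding scaffold, ranged from 203 in library 3 and 298 in library 19 to 650.1, around 501. Bsn (bassoon, a giant scaffold) ranged from 3413 in library 3 to 6041 around 5171. Rab3a, the vesicle GTPase that these scaffolds bind, ranged from 5962 to 8460.1 around 7197 with an SD of 0.12, while its effector Rph3a (rabphilin) ranged from 1327 to 3271 around 2717 with an SD of 0.33. Libraries 3 and 19 were at 1327 and 1453 for Rph3a but at 7103 and 7197 for Rab3a, so the GTPase and its effector parted in these 2 rats. Low Rph3a was not confined to them, as its lowest value without libraries 3 and 19 was 1588 and its SD 0.22.

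The 5 endocytosis genes were all low in library 3. Dnm1, the neuronal dynamin that cuts vesicles off the membrane, ranged from 14995 in library 3 to 22873 around 19707, with an SD of 0.15. Snap91 (AP180, a clathrin adaptor) ranged from 2774 to 5107 around 4079, Synj1 (synaptojanin, a lipid phosphatase that uncoats vesicles) from 1519 to 4156 around 3109 and Sh3gl2 (endophilin A1) from 1130.1 to 2311 around 1839.5. For all 4 of these genes library 3 was the lowest of 27. Amph (amphiphysin, which recruits dynamin) ranged from 439 to 1339 around 936, with library 19 lowest and library 3 next at 482.

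Library 3 was the lowest of the 27 for 19 of the 34 genes and the highest for none. Over all 11730 genes tested, library 3 was the lowest for 19.9% and the highest for 19.8%, so it stood apart in both directions over the whole table, but in 1 direction over these genes. Its log2 value lay more than 0.5 below the median library for 19 of the 34 genes (55.9%) against 16.2% of all genes tested, and more than 0.5 above it for none against 10.5%. The largest deviations were -2.26 for Napb, -1.91 for Syn3, -1.84 for Syt7, -1.46 for Unc13a, -1.37 for Syt1, -1.33 for Syngr1 and -1.30 for Rims2. At the same time 12 of the 34 genes (35.3%) lay within 0.1 of their median, against 21.1% of all genes tested. All 4 SNAREs, Napa, Syt5, Cplx1, Syngr3 and Rab3a were among the 12. Library 19 showed a smaller deviation of the same direction, with 12 of 34 genes more than 0.5 below the median (35.3%) against 7.56% of all genes tested. Library 12 was the highest of 27 for 10 of the 34 genes, against 9.30% of all genes tested.

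Library 3 also had the highest oligodendrocyte score of the 27, at 2.28, the mean z score over 10 markers that ranged from -1.82 to 2.28. Its neuron score, the same measure over 10 neuron markers, was -0.42 in a range from -0.96 in library 5 to 0.75 in library 13. Its score over 5 upper-layer markers, -1.78, was the lowest, followed by -0.82 in library 9. Bc1, a small noncoding RNA of neurons named here after its values were seen, was highest in libraries 3 and 19, at 62352 and 62228 normalized counts against a median of 21140.1. Only 1 library held fewer reads than library 3. The part of these differences in the low values of the vesicle genes was not tested.

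**Figure D2:**
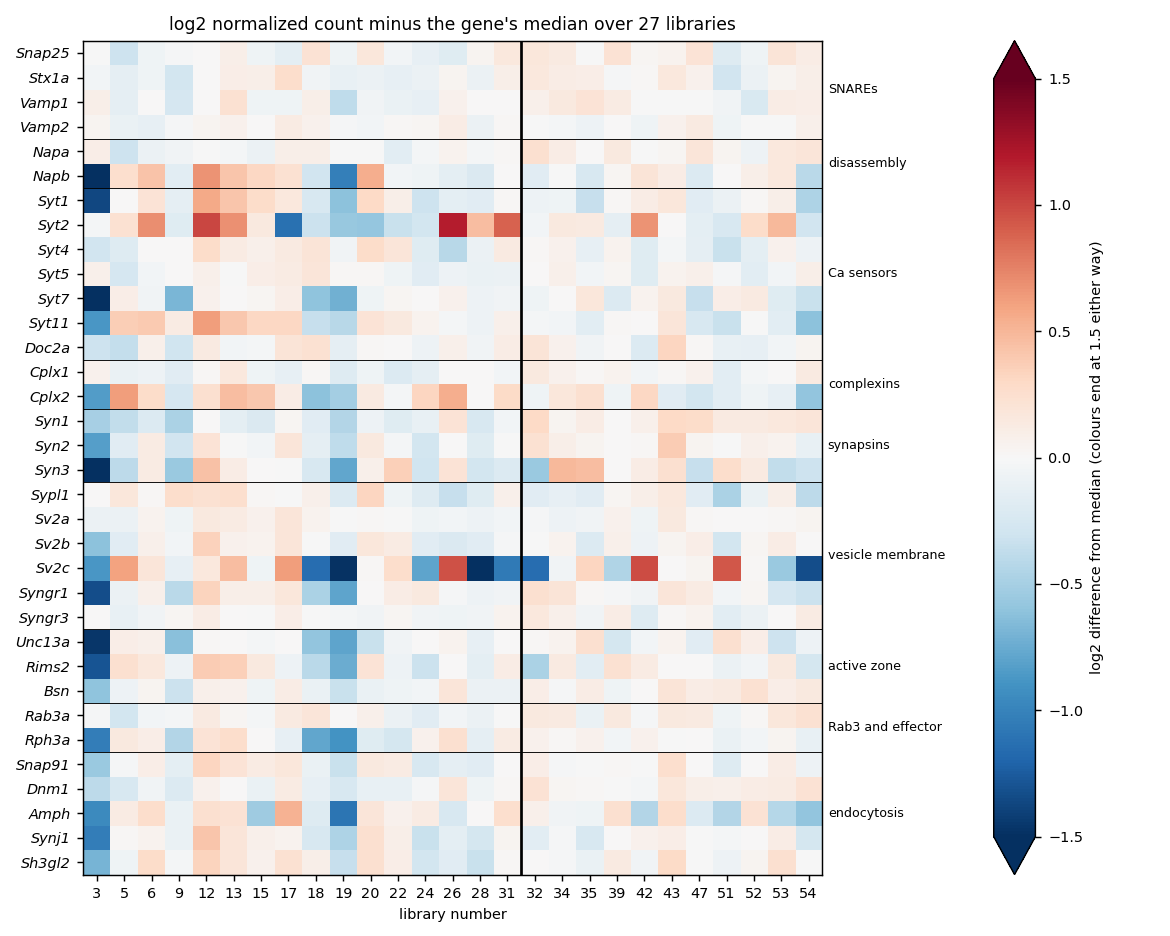
Difference of each gene from its own median over the 27 libraries on the log2 scale (color), for the 34 genes by role (rows) and the library number (columns), with a vertical line between libraries up to 31 and from 32. The column of library 3 is blue for most genes outside the SNAREs, with -2.26 for Napb and -1.84 for Syt7. That of library 19 is paler in most of the same rows but deeper for Amph (-1.09) and Sv2c (-1.48).

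Some paralogs had unlike SDs and others had similar ones. Napa, Syt5, Cplx1, Syngr3 and Sv2a had SDs of 0.12, 0.10, 0.10, 0.09 and 0.08, and Napb, Syt1, Cplx2, Syngr1 and Sv2b had 0.55, 0.37, 0.37, 0.35 and 0.18. Without libraries 3 and 19 the values of the second series were 0.27, 0.24, 0.32, 0.20 and 0.14, each still above that of its partner in the same libraries. Syn1 and Syn2 had the same SD of 0.23, and Vamp1 and Vamp2 were both steady, at 0.14 and 0.07. These pairs were put together after their values were seen, and the difference in spread was not tested.

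Over all 27 libraries the pairs of the 34 genes had higher correlations than pairs of genes in general. Over the 561 pairs, Spearman's rho across the 27 libraries had a median of 0.291, against -0.005 over all pairs of the 11730 genes tested. A rho of at least 0.6 was found in 65 of the 561 pairs (11.6%) against 2.02% of all pairs, and a rho of -0.6 or lower in 1 pair against 1.42%. Without libraries 3 and 19 the median rho was 0.212 and 56 pairs (9.98%) reached 0.6, against 1.94% of all pairs. Within the 16 libraries up to 31 the median was 0.397 and 24.4% of pairs reached 0.6 against 3.99% of all pairs. Within the 11 libraries from 32 it was 0.127, with 13.7% against 4.25%. In that set 25 pairs (4.46%) had a rho of -0.6 or lower, against 3.93% of all pairs, so strong negative pairs were about as frequent as among genes in general. There were 3 such pairs without libraries 3 and 19 (0.535%) against 1.46%. Pairs share genes and libraries, so these medians and shares are descriptions without a test.

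**Figure D3:**
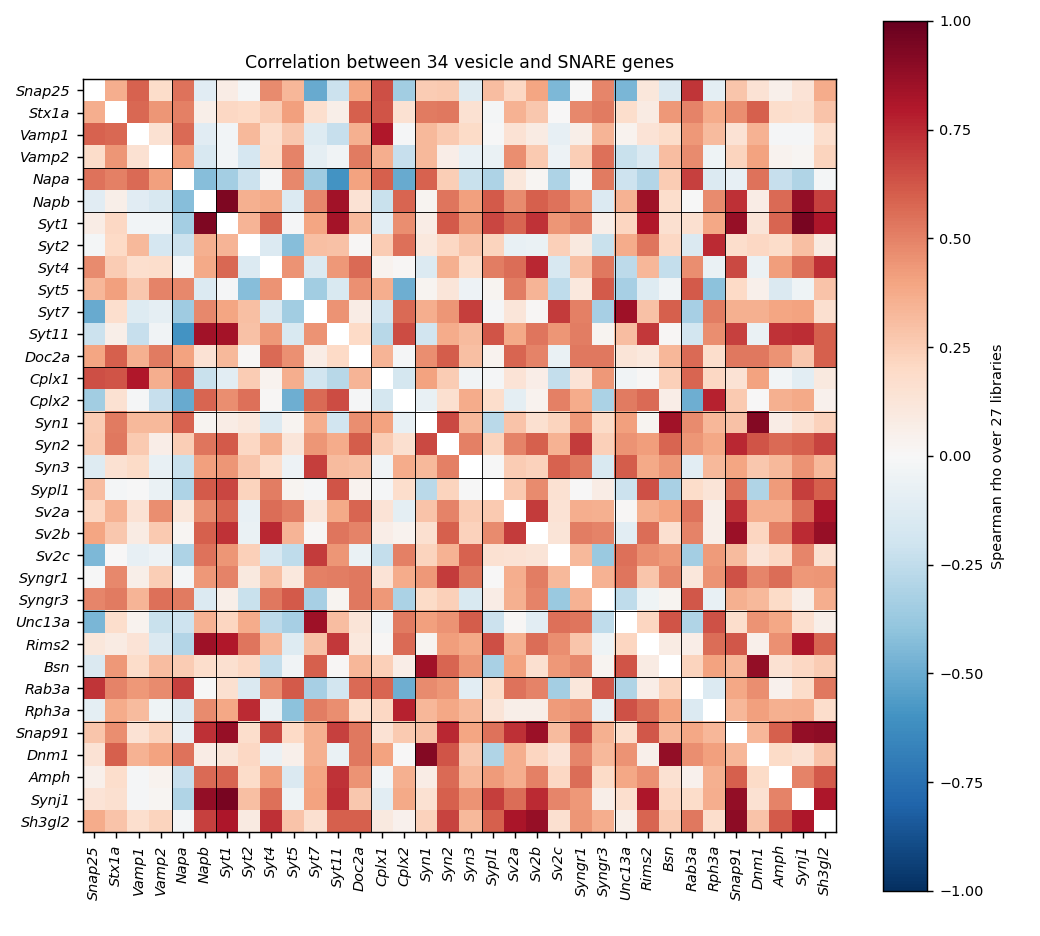
Spearman's rho across the 27 libraries for each pair of the 34 genes, which are ordered by role, with red for positive and blue for negative values. The red fields join Napb, Syt1, Syt11, Rims2, Snap91, Synj1 and Sh3gl2 across roles, and Napa is blue against Napb, Syt11 and Cplx2.

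Of the 5 closest pairs, all but Snap91 with Sh3gl2 joined genes of different roles. Each p for a pair comes from a two-sided permutation test with 100000 permutations, adjusted by the Benjamini-Hochberg method over the 561 pairs, and the smallest p that these permutations can give is 1e-05. Syt1 and Synj1, a calcium sensor and a lipid phosphatase of endocytosis, had the highest rho, 0.953 (Pearson's r 0.971, p = 1e-05 for each, adjusted p = 0.000234 for rho and 0.00013 for r). Without the 2 libraries farthest from the median of Syt1, r was 0.925. The value of rho was 0.976 in libraries up to 31 and 0.900 in those from 32. The libraries were thus ordered almost alike by the 2 genes in each set.

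Napb and Syt1 followed with a rho of 0.934 (r 0.961, and 0.927 without the 2 libraries farthest from the median of Napb), 0.932 in libraries up to 31 and 0.936 in those from 32. Syn1 and Dnm1 had a rho of 0.916 (r 0.927, and 0.911 without 2 libraries), with 0.865 and 0.845 within the sets. Snap91 and Sh3gl2, both of clathrin-mediated endocytosis, had 0.893 (r 0.922, and 0.854), with 0.903 and 0.800. Napb and Synj1 had 0.882 (r 0.944, and 0.862), with 0.900 and 0.909. For all 5 pairs the permutation p of rho was 1e-05 over the 27 libraries, and without libraries 3 and 19 their rho stayed between 0.851 and 0.941. Snap91 reached a rho of at least 0.6 with 11 genes, Sh3gl2 with 10 and Syt1 with 9, whereas Vamp2 reached it with none.

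The lowest pairs all joined a steady gene with a variable one. Napa and Syt11 had a rho of -0.601 (r -0.504, permutation p = 0.00109 for rho and 0.00771 for r, adjusted p = 0.00941 and 0.0217), with -0.526 in libraries up to 31 and -0.400 in those from 32. Snap25 and Syt7 had a rho of -0.507 but an r of -0.186 (permutation p = 0.00807 and 0.363, adjusted p = 0.0335 and 0.502). The value of rho was -0.512 in libraries up to 31 and -0.782 in those from 32, and -0.674 without libraries 3 and 19 (adjusted p = 0.00546 by permutation). For r it was -0.50 without libraries 3 and 19 but -0.0893 without the 2 libraries farthest from the median of Snap25, so the relation of these 2 genes depended on the measure. Cplx2 had a rho of -0.505 with Napa, -0.488 with Syt5 and -0.485 with Rab3a (permutation p = 0.00728, 0.0112 and 0.0111, adjusted p = 0.0307, 0.0415 and 0.0414). The matching r were -0.493, -0.530 and -0.461 (permutation p = 0.00877, 0.00435 and 0.0156, adjusted p = 0.024, 0.0139 and 0.0387). Both sets of libraries gave negative rho for each of the 3 pairs, between -0.344 and -0.527. Without libraries 3 and 19 the adjusted p of rho was 0.0558 for Napa, 0.0916 for Syt5 and 0.0297 for Rab3a.

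Partners in the fusion complex were not among the closest pairs. Snap25 had a rho of 0.360 with Stx1a (permutation p = 0.0646, adjusted p = 0.149) and 0.184 with Vamp2 (permutation p = 0.358, adjusted p = 0.52). Stx1a and Vamp2 had 0.443 (permutation p = 0.0215, adjusted p = 0.0646), with 0.621 in libraries up to 31 and 0.209 in those from 32. The r of these 3 pairs were 0.327, 0.204 and 0.476 (adjusted p = 0.171, 0.446 and 0.0322 by permutation), so Stx1a and Vamp2 passed by r and not by rho. Rab3a and its effector Rph3a had -0.137 (r -0.0787, adjusted p = 0.63 and 0.806 by permutation). No pair with Nsf could be computed, as that gene was listed at 0.

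Of the paralogs, Sv2a and Sv2b had a rho of 0.700 (r 0.664, adjusted p = 0.00133 and 0.001 by permutation), with 0.803 in libraries up to 31 and 0.464 in those from 32. Syn1 and Syn2 had 0.661 (r 0.734, adjusted p = 0.00256 and 0.000212 by permutation), with 0.803 and 0.327. Syn2 and Syn3 had 0.507 (r 0.781, adjusted p = 0.0305 and 0.000553 by permutation), but 0.853 in libraries up to 31, 0.0636 in those from 32 and 0.378 without libraries 3 and 19 (adjusted p = 0.18 by permutation). The relation of the last pair therefore rested on the first set. Syn1 and Syn3 had 0.324 (r 0.498, adjusted p = 0.195 and 0.0184 by permutation), with a sign that differed between the sets, 0.679 and -0.464.

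The other paralogs did not pass for rho or r. Napa and Napb had a rho of -0.424 (adjusted p = 0.0805 by permutation), Cplx1 and Cplx2 -0.178 (0.533), Vamp1 and Vamp2 0.156 (0.584), Syngr1 and Syngr3 0.351 (0.159) and Syt1 and Syt2 0.336 (0.183), each value in parentheses an adjusted p. Sv2c, with few reads, had 0.142 with Sv2a and 0.125 with Sv2b (adjusted p = 0.62 and 0.661 by permutation). These p-values do not show that the paralogs varied independently.

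**Figure D4:**
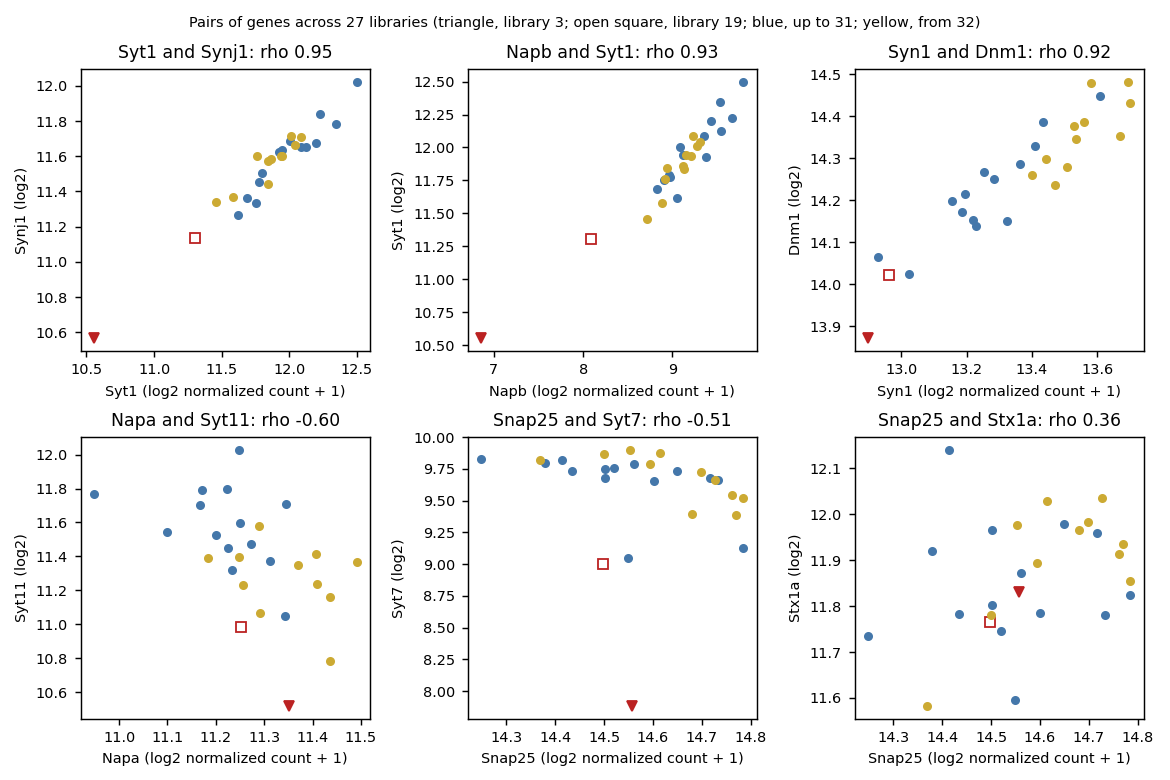
Log2 values (normalized count + 1) of 6 pairs of genes, with a point for each of the 27 libraries (blue up to 31, yellow from 32, triangle for library 3 and open square for library 19). Syt1 with Synj1, Napb with Syt1 and Syn1 with Dnm1 lie along a line in both sets, and Napa falls with Syt11. Syt7 has a rho of -0.507 and an r of -0.186 with Snap25 over the 27 libraries.

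Between the 2 sets of libraries, 4 of the 34 genes differed in edgeR's quasi-likelihood test with Benjamini-Hochberg adjustment over 11716 genes, and all 4 were higher in libraries from 32. The background was 8.85% of all genes higher and 9.18% lower, so the share of members that were higher, 11.8%, was close to it, and none was lower. At an unadjusted p under 0.05, 7 of the 34 were higher and 1 lower, against 15.6% and 15.7% of all genes, and DESeq2's Wald test also called 4 and 0. The median log2 difference of the 34 genes was 0.04 against -0.00062 over all genes tested, but 0.02 without library 3 and 0.0091 without libraries 3 and 19.

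Syn1 ranged from 7629 to 12481 normalized counts around 9567 in libraries up to 31 and from 10799.5 to 13319.9 around 11850.5 in those from 32. The lowest values of the second set lay among the highest of the first, and the log2 difference was 0.33 (SE 0.06, adjusted p = 0.00029, edgeR). Dnm1 went from a median of 18637 (14995 to 22359.8) to 20930.4 (19279 to 22873), a log2 difference of 0.17 (SE 0.05, adjusted p = 0.0129, edgeR). Bsn went from 4933 (3413 to 5888) to 5574 (4949.6 to 6041), a difference of 0.17 (SE 0.06, adjusted p = 0.0369, edgeR). Napa went from 2419 (1975 to 2610.4) to 2648 (2324 to 2877), a difference of 0.12 (SE 0.04, adjusted p = 0.0362, edgeR). The ranges of the 2 sets overlapped for each of the 4 genes. Napa was no longer called without libraries 12 and 20, with a difference of 0.12 as before. Without library 3 the same 4 were called, and Syt11 was in addition lower in libraries from 32 (adjusted p = 0.0368, against 0.145 with all 27, edgeR).

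The other release genes, 59 genes of the same pathway that include Munc18, further synaptotagmins, vesicular transporters and the clathrin coat, held 58 with counts, Unc13c being at 0. Of these, 8 were higher and 4 lower in libraries from 32. The extremes were Syngr2, a synaptogyrin of non-neuronal cells, at -1.03 (SE 0.17, adjusted p = 0.000131, edgeR) and Ap2a1, a subunit of the AP2 clathrin adaptor, at 0.22 (SE 0.04, adjusted p = 0.000257, edgeR).

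Rab3a, Snap25, Syt4, Syt5 and Sv2b rose with the neuron score, each with a small slope. The score is the mean z score of 10 neuronal genes that are no vesicle genes, and a slope is the log2 change per SD of the score over the 27 libraries. In edgeR's test over 11873 genes, 5 of the 34 genes had a positive slope past the threshold and none a negative one, against 1.68% and 1.84% of all genes. With total counts in place of edgeR's TMM scaling these shares were 0.851% and 2.86%, and 3 of the 34 genes rose. At an unadjusted p under 0.05, 16 of the 34 had a positive slope, against 9.17% of all genes, and none a negative one. The median slope was 0.06 against -0.0038 over all genes tested.

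Rab3a had the clearest slope, 0.10 (SE 0.01, adjusted p = 0.0011, edgeR), and was the only 1 of the 5 that stayed past the threshold without libraries 5 and 13, the farthest from the median score. The slopes of the other 4 without these libraries, 0.08 for Snap25, 0.10 for Syt4, 0.06 for Syt5 and 0.11 for Sv2b, were about as large as with them. Snap25 had 0.09 (SE 0.02, adjusted p = 0.0233), Syt4 0.10 (SE 0.03, adjusted p = 0.0309), Syt5 0.06 (SE 0.02, adjusted p = 0.0359) and Sv2b 0.10 (SE 0.03, adjusted p = 0.0477) in the same edgeR fit. Without libraries 12 and 20, left out for their high 18S ribosomal RNA, only Rab3a and Snap25 passed, with Syt4, Syt5 and Sv2b at slopes of 0.08, 0.07 and 0.08. With the set of libraries (up to 31 or from 32) as a further term, 10 of the 34 passed, all with positive slopes, against 4.23% of all genes higher and 3.91% lower. The added ones were Stx1a, Napa, Doc2a, Sv2a and Syngr3. Genes such as Unc13a, Syt7 and Cplx2 had slopes of -0.04, -0.01 and -0.06 (adjusted p = 0.775, 0.939 and 0.624, edgeR). Of the other release genes, 5 rose and 2 fell, with Rab3c, a further vesicle Rab3, at 0.32 (SE 0.09, adjusted p = 0.0477, edgeR) and Dnm2, the dynamin of all cells, at -0.10 (SE 0.02, adjusted p = 0.0229, edgeR).

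**Figure D5:**
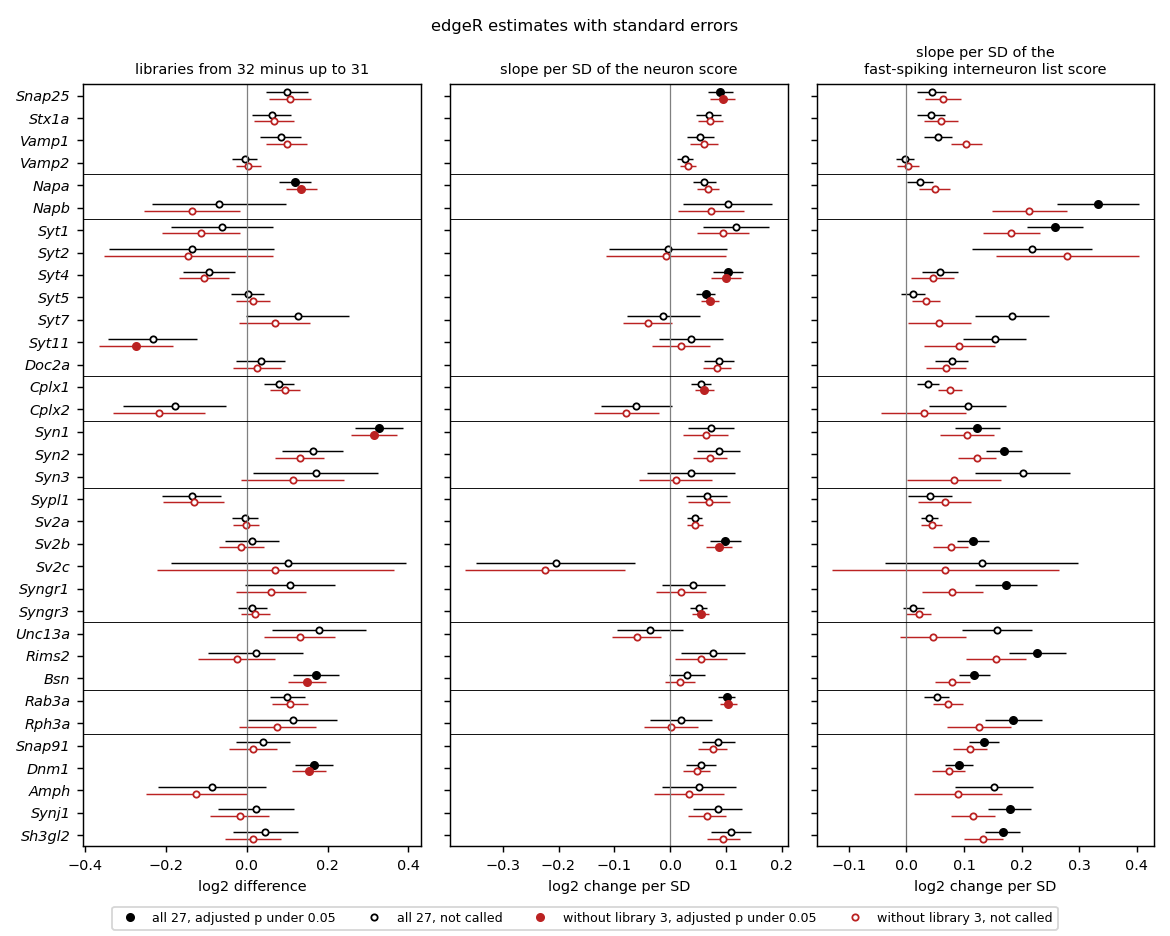
Log2 difference between the sets of libraries (left) and log2 change per SD of the neuron score (middle) and of the fast-spiking interneuron list (right) for the 34 genes, with edgeR standard errors, over all 27 libraries (black) and without library 3 (red), where filled points passed an adjusted p of 0.05. In the right panel 13 black points and no red point are filled.

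Against the oligodendrocyte score, Doc2a alone passed, with a slope of -0.11 per SD (SE 0.02, adjusted p = 0.0132, edgeR), against 0.249% of all genes lower and 1.4% higher. No member rose with the score, and none did at an unadjusted p under 0.05 or in DESeq2's test. Its slope was -0.10 without library 3, where it did not pass, and -0.11 without libraries 3 and 19, where it did, so the size of the slope did not rest on library 3. With the set of libraries as a further term, Dnm1 and Syn1 fell too, 3 of 34 in all, against 0.964% of all genes lower and 2.26% higher. The median slope of the 34 genes was -0.04 against -0.00019 over all genes tested, but -0.0096 without library 3 and -0.02 without libraries 3 and 19. Among the other release genes Cplx3 had the largest slope, 0.52 (SE 0.07, adjusted p = 8.84e-06, edgeR), and Syt17 fell by 0.11 per SD (SE 0.02, adjusted p = 0.00622, edgeR).

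The list of fast-spiking, parvalbumin-positive interneurons gave the largest number of calls among the scores, none of which was made without library 3. Over 27 libraries, 13 of the 34 genes rose with the score and none fell, against 6.85% of all genes higher and 8.11% lower (edgeR, 12108 genes). They were Napb with a slope of 0.33 (SE 0.07, adjusted p = 0.00398), Syt1 with 0.26 (SE 0.05, adjusted p = 0.00206), Rims2 with 0.23 (SE 0.05, adjusted p = 0.00403), Rph3a, Synj1, Syngr1, Syn2, Sh3gl2, Snap91, Syn1, Bsn, Sv2b and Dnm1, the last at 0.09 (SE 0.02, adjusted p = 0.0115). Without library 3 no member and no gene of 12034 passed in either direction (0% higher and 0% lower), although 17 of the 34 had a positive slope at an unadjusted p under 0.05, against 6.37% of all genes, and none a negative one. All 13 slopes stayed positive and became smaller without this library. Those of Syn1 (0.12 to 0.11), Snap91 (0.13 to 0.11), Sh3gl2 (0.17 to 0.13) and Dnm1 (0.09 to 0.07) changed least, and those of Syngr1 (0.17 to 0.08), Napb (0.33 to 0.21) and Synj1 (0.18 to 0.12) shrank by more than 1.5 times. With the set of libraries as a further term, over all 27 libraries, 14 of the 34 rose, against 8.54% of all genes higher and 8.35% lower. Syt11 and Sv2a were gained in that fit, and Syn1, whose slope went from 0.12 to 0.08, was lost. Without libraries 3 and 19, which are the farthest from the median score, the 13 slopes were positive, and all but those of Snap91 (0.09) and Sh3gl2 (0.12) were smaller than over 27 libraries by more than 1.5 times. Syngr1 was at 0.0047, Rph3a at 0.05, Bsn at 0.05, Rims2 at 0.10, Napb at 0.14 and Syt1 at 0.15. In these 25 libraries edgeR called none of the 34 and DESeq2 none of the 23 it tested, with 10 at an unadjusted p under 0.05 in each, against 4.28% of all genes in edgeR and 13.8% of the 1338 genes tested in DESeq2.

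The score rests on 7 of 8 listed genes, as Osbpl3 was at 0, and its genes parted in library 3. Its score was the lowest of the 27, at -1.39, and Gad2, Lhx6 and Kcnc1 were at their lowest there (96.3, 147 and 684 normalized counts against medians of 339, 215 and 889), but Pvalb, which defines these cells, was at its highest, 720 against a median of 432. These 4 genes are named after their values were seen. Syt2 and Vamp1, which such interneurons are known to express, had slopes of 0.22 and 0.06 over all 27 libraries (adjusted p = 0.149 and 0.12, edgeR). Of the other release genes 15 rose and 4 fell, with Syngr2 at -0.40 (SE 0.09, adjusted p = 0.00395, edgeR).

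Neither the striatal markers nor the immediate early genes moved with the vesicle genes past the threshold. For the striatum score, a measure of tissue from below the cortex, 0 of 34 passed in edgeR and in DESeq2 in either direction, against 0.0655% of all genes higher and 0% lower, and 1 (Stx1a) had a negative slope at an unadjusted p under 0.05. For the score of 12 immediate early genes, a measure of recent neuronal activity, 0 of 34 passed in either tool, against 0.126% higher and 0% lower, and 1 (Syt2) had a positive slope at an unadjusted p under 0.05. Syt4, itself known as activity-regulated, had a slope of -0.02 (SE 0.03). None of the 58 other release genes passed for these 2 scores.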

How the data were processed

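RNA from the mPFC of 27 rats was sequenced as single reads. The submitters' processing notes name Trimmomatic, STAR and HTSeq. Versions, genome build and strand setting are not given in the sources used here, so counts of close paralogs and of overlapping or antisense genes are uncertain. The paper and the labels differ on the dissected section and on the library kit. The authors deposited raw read counts per NCBI gene ID, without normalization. Symbols for the IDs came from RefSeq (GRCr8).

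Counts were divided by DESeq2 (1.42.0) median-of-ratios size factors, and log2 values are log2(normalized count + 1), which understates changes of low genes. Spread, pair correlations and edgeR (4.0.16) quasi-likelihood fits (filterByExpr, TMM, 1 covariate at a time, all genes, Benjamini-Hochberg, threshold 0.05) used R 4.3.3 and Python 3.11.15. On simulated counts of 11716 genes edgeR recovered 164 of 200 genes that differed by 0.5 (log2) between the sets of libraries, with 8 false calls. The differences called for members were smaller, 0.12 to 0.33, so this recovery does not give the power at their size. The simulated counts also held no library that stood apart. Reads carry no molecular identifiers, so floors and dispersion tests cover counting error only. The p-values of fits and pairs rest on the spread between libraries. With 1 library per rat, differences between rats, dissections and library preparations cannot be told apart in that spread.

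The members and all gene lists were chosen with earlier results of these data known. Named were all members, the other release genes with the largest and smallest slope among those called, the 5 highest and 5 lowest pairs, and preset paralog and partner pairs. A gene that this rule picked is not reported here. Alternatives were other scalings, tests, filters and pseudocounts, and fits without single libraries. The fits without library 3, or 3 and 19, were added after seeing the data.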

Additional observations from a re-analysis of the deposited data

How the results depend on the processing

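All 34 genes kept a spread beyond counting error under each of the 6 alternatives. The median rho of the pairs, 0.291, was 0.397 within libraries up to 31 and 0.127 within those from 32, and between 0.244 and 0.312 when each library was left out in turn. It moved by less than its jackknife SD of 0.0829 under the other scalings, the other pseudocount, Pearson's r, the set of libraries regressed out, genes with a mean of at least 100 reads, and without libraries 12 and 20, 3, or 3 and 19. The 4 genes that differed between the sets of libraries numbered 3 to 5 under all alternatives. For the neuron score the 5 genes became 12 with DESeq2, 10 with the set of libraries added, 3 with total counts, 2 without libraries 12 and 20 and 1 without the 2 farthest libraries, while the share of all genes that rose, 1.68%, became 3.03%, 4.23%, 0.851%, 0.37% and 0.463%. For the oligodendrocyte score the 1 gene became 3 with the set added, and 0 without the 2 farthest libraries and without library 3. For the fast-spiking interneuron list the 13 genes were 19 with DESeq2 (9.5% of all genes higher and 8.15% lower, against 6.85% and 8.11%), 0 without library 3 in edgeR, and 0 without libraries 3 and 19 in edgeR and in DESeq2, which tested 23 of the 34 there. The cause of these shifts was not tested, and fits with fewer libraries also have less power. No called slope or difference changed sign. Of 196 repeats of called single genes under an alternative, 146 stayed past the threshold and 50 did not. The striatum and immediate early scores gave 0 genes throughout. Depth limits Syt2 and Sv2c, with at most 42 and 34 reads per library. No paired analysis was possible because all libraries belong to 1 group.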
